A study of Mus musculus with 8 samples.

Results

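CC chemokine ligands were examined in subcutaneous C26 tumors of mice by bulk RNA sequencing. The 10 genes are Ccl2, Ccl3, Ccl4, Ccl5, Ccl6, Ccl7, Ccl8, Ccl9, Ccl11 and Ccl22, taken by symbol from the 27179 genes of the expression table. C26 is a colon carcinoma cell line whose cachectic form, cxC26, causes weight loss in the host. The cxC26 scr group (n = 4 tumors) came from cells that received lentiCRISPRv2 with a scrambled guide RNA and otherwise retained Il6. The cxC26 IL6KOs1 group (n = 4 tumors) came from 1 subclone of cxC26 cells in which Il6, the gene of interleukin 6, had been disrupted with lentiCRISPRv2 guides. Both groups share Cas9 delivery by lentivirus and puromycin selection, and the knockout group represents a single clone. The study describes a larger inoculum and slower growth for the subclone, so inoculum, tumor age and genotype cannot be told apart here. Hosts of both groups were male CD2F1 mice, 13 to 18 weeks old when used, and tumors were collected once body weight had fallen by more than 15%. Host cells kept their own Il6 in both groups.

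CC chemokines are small secreted proteins that attract leukocytes through G protein-coupled receptors named Ccr, and each receptor usually binds several ligands. Ccl2, Ccl7, Ccl8 and Ccl12 belong to the monocyte chemoattractant proteins, Ccl11 is an eotaxin, Ccl3 and Ccl4 are macrophage inflammatory proteins, and Ccl22 is made mainly by dendritic cells and macrophages. In tumors these ligands are made by cancer cells, stroma and infiltrating myeloid cells.

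Il6 was lower in every cxC26 IL6KOs1 tumor, with 56 to 86 reads against 326 to 438 reads in the cxC26 scr tumors (log2 difference -2.45, SE 0.165, limma adjusted p = 1.76e-06). The 8 libraries held 14158989 to 17048062 reads on genes. Replicates differed by more than counting noise, and the labels do not say which tumor came from which cage or day. Of 5 epithelial markers, Krt19 had 0 or 1 read in every tumor and Epcam stayed below 1 CPM (reads scaled to library size). Krt8, too low to be tested, had 3 to 6 reads in scr tumors and 9 to 15 reads in knockout tumors, without overlap. Krt18 and Cdh1 were tested and were higher in the knockout tumors. Krt18 had 21 to 30 reads in scr tumors against 140 to 282 reads, and Cdh1 had 17 to 37 reads against 45 to 87 reads. In bulk tumor RNA, fewer cells of a type and less RNA per cell cannot be told apart.

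Of the 10 ligands, 5 were higher in the cxC26 IL6KOs1 tumors and 0 were lower. Ccl2, Ccl7, Ccl8, Ccl11 and Ccl4 passed the threshold (limma with Benjamini-Hochberg adjustment over 13262 tested genes, adjusted p under 0.05), Ccl3, Ccl5, Ccl6 and Ccl9 did not, and Ccl22 was too low to be tested. Across all tested genes 19.1% were called higher and 20.7% lower. Of the 9 tested ligands 4 (Ccl2, Ccl7, Ccl8 and Ccl4) were called higher by at least 2-fold, as were 6.25% of all tested genes. The log2 difference was above 0 in the 9 tested ligands and in 49.7% of all tested genes. The count of 0 lower ligands was also 0 at an unadjusted p under 0.05 and with limma-voom precision weights. In Ccl2, Ccl7 and Ccl4 every cxC26 IL6KOs1 tumor lay above every cxC26 scr tumor, a separation found in 17.8% of all tested genes. Ccl4 met the low-expression filter through the cxC26 IL6KOs1 tumors alone, since 0 of 4 cxC26 scr tumors reached 1 CPM. Of the 8 ligands that met the filter otherwise, 4 were called higher. The median log2 difference over all tested genes was -0.0029, and the values below were not re-centred. The deposited values were already scaled between tumors, so this median cannot show whether the scaling was right. With each tumor re-centred by its median, 5 ligands were called higher.

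**Figure D1:**
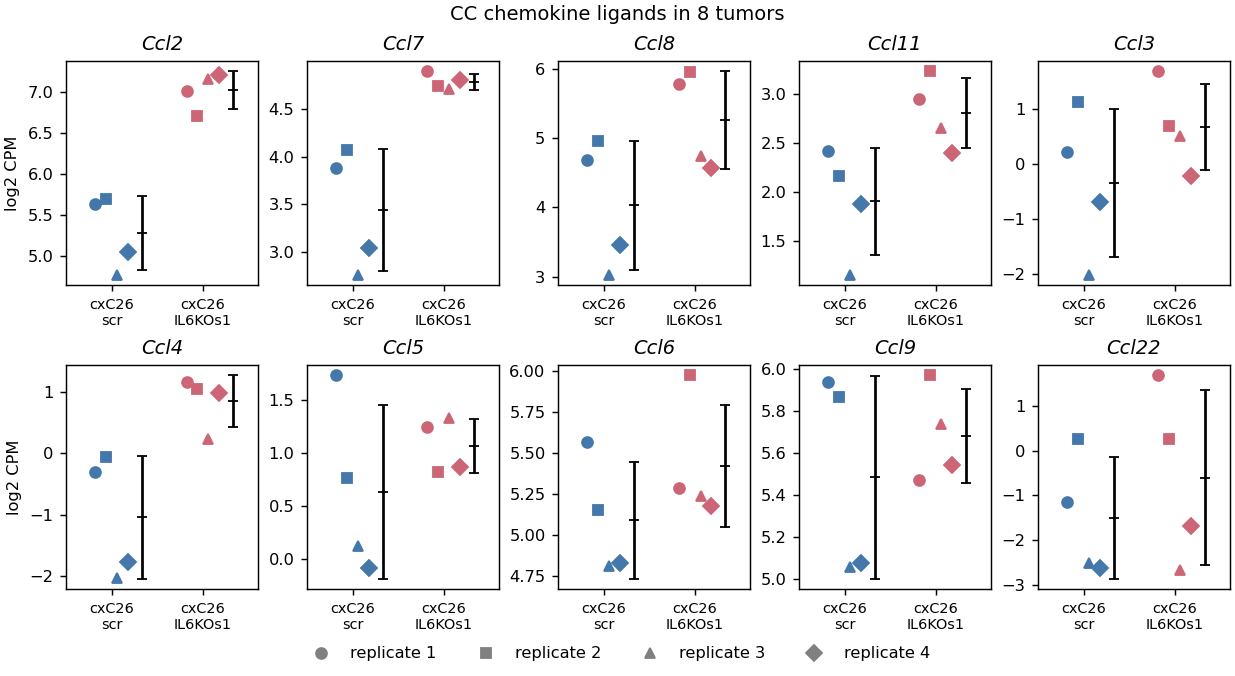
Expression of the 10 CC chemokine ligands in each tumor, in log2 CPM on the vertical axis (each panel has its own scale), with cxC26 scr in blue and cxC26 IL6KOs1 in red and a bar for the mean ± SD of 4 tumors. The groups are separate for Ccl2, Ccl7 and Ccl4 and overlap in the other panels, and cxC26 scr replicates 1 and 2 lie above replicates 3 and 4 in each panel.

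Ccl2, the main attractant of Ccr2-bearing monocytes, stood at 49.5, 51.7, 27.3 and 33.0 CPM in cxC26 scr replicates 1 to 4 and at 129, 104, 143 and 148 CPM in cxC26 IL6KOs1 replicates 1 to 4. The lowest knockout tumor lay above the highest scr tumor. Mean log2 CPM was 5.28 ± 0.45 (SD, n = 4) against 7.02 ± 0.23 (SD, n = 4), a 3.33-fold difference with a 95% interval of 2.48 to 4.47 and a limma adjusted p of 5.90e-05. A two-sided exact permutation test over the 8 tumors gave p = 0.0286, the smallest value that 4 against 4 tumors allow.

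Ccl7, a further monocyte attractant acting through Ccr2, had 14.7, 16.8, 6.78 and 8.28 CPM in the scr tumors and 29.7, 26.7, 26.0 and 27.8 CPM in the knockout tumors. The groups did not overlap, and the knockout tumors varied little among themselves. The log2 means were 3.44 ± 0.63 and 4.78 ± 0.08 (SD, n = 4 each), 2.53-fold apart (95% interval 1.74 to 3.70, limma adjusted p = 0.00143, two-sided exact permutation p = 0.0286). Ccl2 and Ccl7 were called higher under all 16 alternative settings tried for them.

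Ccl8, which in the mouse acts through Ccr8, measured 25.6, 31.1, 8.12 and 10.9 CPM in the scr tumors against 54.8, 61.8, 26.9 and 23.8 CPM in the knockout tumors. Knockout replicates 3 and 4 were below scr replicate 2, so the groups overlapped. The log2 difference was 1.23 with a 95% interval of 0.30 to 2.17 (limma adjusted p = 0.0387), while the two-sided exact permutation p was 0.143. Without scr replicate 3 or 4, or knockout replicate 1 or 2, the limma adjusted p rose to 0.0752 to 0.113.

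Ccl11, an attractant of eosinophils through Ccr3, had 5.36, 4.48, 2.21 and 3.67 CPM in the scr tumors and 7.72, 9.42, 6.31 and 5.28 CPM in the knockout tumors. Only knockout replicate 4 fell within the scr range, just under scr replicate 1. The log2 difference was 0.91 (95% interval 0.30 to 1.52, limma adjusted p = 0.0226, two-sided exact permutation p = 0.0571). The limma adjusted p was 0.0514 to 0.0638 without scr replicate 3, scr replicate 4 or knockout replicate 2.

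Ccl4, an attractant of monocytes and T cells, was read at a low level, with 13, 15, 3 and 4 reads in the scr tumors and 36, 28, 18 and 28 reads in the knockout tumors. The lowest knockout tumor had more reads than the highest scr tumor. The log2 difference was 1.90 with a 95% interval of 0.84 to 2.95 (limma adjusted p = 0.00897, two-sided exact permutation p = 0.0286). The size of the difference depended on the offset at such counts, and on a scale of log2 of CPM + 1 it was 0.89, under 2-fold (limma adjusted p = 0.00588). Ccl3, which lies beside Ccl4 and binds Ccr1, had 19, 35, 3 and 9 reads against 52, 22, 22 and 12 reads. Its groups overlapped widely, and its log2 difference of 1.01 had a 95% interval of -0.34 to 2.37 (limma adjusted p = 0.214). The Ccl3 value was 0.45 without scr replicate 3, 0.67 without knockout replicate 1 and 0.47 on the scale of log2 of CPM + 1. The annotated span of Ccl4 overlaps that of Ccl3, and the library kit does not mark strand, so reads in the shared stretch cannot be told apart.

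Ccl6 and Ccl9, macrophage-derived ligands of Ccr1, were among the more abundant members and did not pass the test. Ccl6 measured 47.4, 35.6, 28.0 and 28.4 CPM in the scr tumors and 38.9, 62.8, 37.7 and 36.2 CPM in the knockout tumors. The log2 difference of Ccl6 was 0.33 (95% interval -0.11 to 0.77, limma adjusted p = 0.214), with knockout replicate 2 above all other tumors. Ccl9 measured 61.3, 58.4, 33.3 and 33.8 CPM against 44.3, 62.8, 53.5 and 46.6 CPM. Scr replicates 1 and 2 were above 3 of the 4 knockout tumors for Ccl9, and its log2 difference of 0.20 had a 95% interval of -0.25 to 0.65 (limma adjusted p = 0.470). A long noncoding RNA overlaps Ccl6 in the annotation, and another overlaps Ccl5.

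Ccl5, made by T cells and macrophages among others and bound by Ccr1 and Ccr3, had 55, 27, 15 and 14 reads in the scr tumors and 38, 24, 39 and 26 reads in the knockout tumors. Scr replicate 1 was the highest of the 8 tumors, and the log2 difference of 0.43 had a 95% interval of -0.39 to 1.26 (limma adjusted p = 0.387). Ccl22, a Ccr4 ligand, had 7, 19, 2 and 2 reads against 52, 16, 2 and 4 reads. A difference in Ccl22 was not detected (mean log2 difference 0.90, two-sided exact permutation p = 0.571), with few reads and a wide spread within each group.

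Several leukocyte marker lists rose in the same tumors and others did not. Of 12 monocyte and macrophage markers 11 were higher and 1, Mertk, was lower, with a median log2 difference of 1.24 and a summed level of 877 to 1141 CPM in scr tumors against 1739 to 3157 CPM in knockout tumors. All 5 pan-leukocyte markers were higher (median 1.03, summed level 152 to 181 CPM against 260 to 537 CPM), as were 7 of 7 tested T cell markers (32.1 to 42.2 CPM against 66.7 to 99.9 CPM), 5 of 5 tested NK and cytotoxic markers (1.75 to 7.23 CPM against 14.6 to 52.7 CPM) and 6 of 6 tested mast cell markers (11.2 to 14.9 CPM against 29.7 to 185 CPM). The filter on low expression shaped these shares. Of the 7 T cell markers 4 (Cd3g, Cd8a, Cd8b1 and Trac) met it through the knockout tumors alone. The same held for 2 of the 5 NK and cytotoxic markers (Klrk1 and Nkg7). Most of the T cell sum was Trbc2, with 418 to 623 reads in scr tumors and 750 to 1285 reads in knockout tumors. Of 4 tested dendritic cell markers 3 were lower and 1 higher (summed level 305 to 411 CPM against 216 to 258 CPM). Most of this sum was Fscn1, with 2938 to 4608 reads in scr tumors and 2198 to 2646 reads in knockout tumors. The dendritic cell markers under the filter (Flt3, Xcr1, Clec9a, Cd209a, Batf3 and Il12b) each had a higher mean log2 CPM in the knockout tumors. Among these the groups were separate for Xcr1 alone, with 2 to 5 reads in scr tumors and 6 to 17 reads in knockout tumors. Of 4 tested neutrophil markers 1 was higher and 1 lower, of 3 regulatory T cell markers 1 was lower, and the 1 tested B cell marker was not called. The part of any of these cells in the ligand differences was not tested.

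Set against the mean log2 CPM of the 12 monocyte and macrophage markers in the same tumor, the groups overlapped for all 10 ligands, a ratio chosen after the values were seen. Relative to these markers Ccl4 differed by 0.70 log2 units between the group means, Ccl2 by 0.54, Ccl7 by 0.15, Ccl8 by 0.04 and Ccl11 by -0.29. The relative level of Ccl9 fell by 1.00 and that of Ccl6 by 0.87 on the log2 scale, again with overlapping groups. Against the pan-leukocyte markers the corresponding differences were 0.77 for Ccl4, 0.61 for Ccl2, 0.22 for Ccl7, 0.11 for Ccl8 and -0.93 for Ccl9, and the groups overlapped for all 10 ligands there too. These ratios carry the spread of both the ligand and the marker list.

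**Figure D2:**
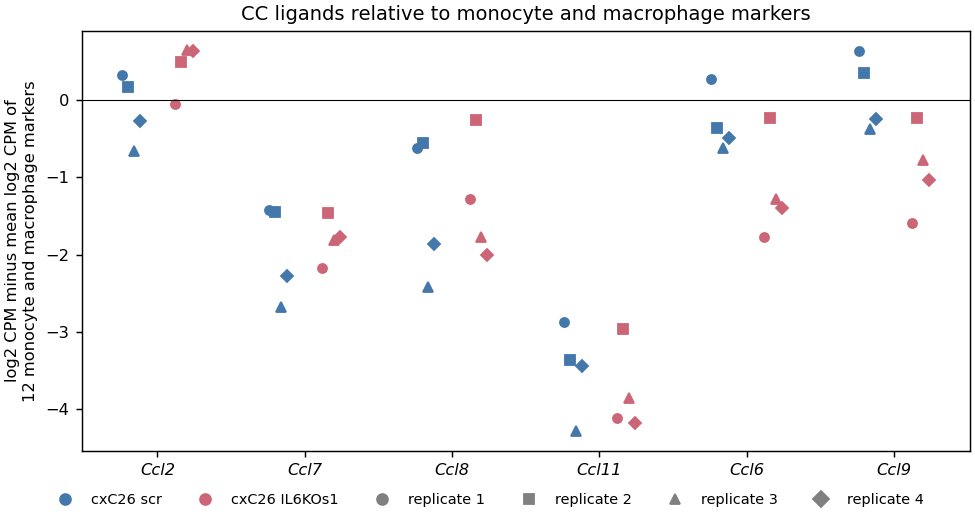
Log2 CPM of 6 ligands minus the mean log2 CPM of 12 monocyte and macrophage markers in the same tumor, with each point a tumor, cxC26 scr in blue and cxC26 IL6KOs1 in red. The groups overlap for each ligand with group means of Ccl2 0.54 apart.

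Levels between ligands were compared as CPM per kb of exon. In the scr tumors the order of mean levels was Ccl8 (37.1 CPM per kb), Ccl2 (35.5), Ccl6 (19.4), Ccl9 (15.3) and Ccl7 (14.5), whose neighbours overlapped over the tumors. A gap separated these from Ccl11 (3.63 CPM per kb), Ccl5 (1.84), Ccl3 (1.38), Ccl4 (0.873) and Ccl22 (0.214), which again overlapped with their neighbours. In the knockout tumors Ccl2 came first at 115 CPM per kb, overlapping with Ccl8 at 81.8 CPM per kb. Ccl7 (34.4 CPM per kb), Ccl6 (24.5) and Ccl9 (17.0) followed as an overlapping run below Ccl8. Ccl11 at 6.64 CPM per kb was separate from Ccl9 above it and from Ccl4 (2.82), Ccl3 (2.33) and Ccl5 (2.21) below it, and Ccl22 came last at 0.526 CPM per kb.

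The 10 ligands together made up 107 to 210 CPM in the scr tumors and 293 to 334 CPM in the knockout tumors. Ccl2 supplied 23.6% to 27.5% of the ligand reads in scr tumors and 31.2% to 50.6% in knockout tumors. Ccl6 and Ccl9 together supplied 46.1% to 57.2% of the ligand reads in scr tumors and 26.4% to 37.6% in knockout tumors. Neither share overlapped between the groups.

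Within the scr group the ligands varied together. All 10 were higher in scr replicates 1 and 2 than in scr replicates 3 and 4, an order found in 22.3% of all tested genes and noticed after the values were seen. The mean of the monocyte and macrophage markers did not follow this order, at 5.30 and 5.52 log2 CPM in scr replicates 1 and 2 and 5.43 and 5.32 in scr replicates 3 and 4. Of the single markers Cd68, Fcgr1 and Ly6c2 followed it and the others did not. After subtraction of group means, Pearson r between pairs of the 9 tested ligands over the 8 tumors had a median of 0.73 and a range of 0.19 to 0.95 over 36 pairs, with the highest for Ccl4 and Ccl7. These points share libraries and scaling, and the correlations are descriptive. The 3 genes whose deviations were most like those of Ccl2 among 9997 candidates were Slc20a1 (r = 0.97, rho = 0.98), Exo1 (r = 0.97, rho = 0.95) and Tfap4 (r = 0.97, rho = 0.93), each over 8 tumors, and 0.23% of candidates had r above 0.9. The likeness holds within groups only. Between the groups Slc20a1 (log2 difference -0.99, limma adjusted p = 0.00142) and Exo1 (-0.78, limma adjusted p = 0.00111) were lower in the knockout tumors, unlike Ccl2. Tfap4 was not called (limma adjusted p = 0.118).

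The genes lie in 2 groups on chromosome 11 (GRCm38.p6, RefSeq), with Ccl22 on chromosome 8 at 94745684 to 94751388. The first group, Ccl2, Ccl7, Ccl11 and Ccl8 in that order, spans chromosome 11 from 82035577 to 82116799, and 4 of 4 members were called higher. Ccl12, a monocyte attractant that is no member and lies between Ccl11 and Ccl8, had 154, 186, 123 and 109 reads in the scr tumors and 425, 316, 260 and 285 reads in the knockout tumors. Its groups did not overlap, and its log2 difference was 1.22 (95% interval 0.83 to 1.61, limma adjusted p = 0.000349). The second group, Ccl5, Ccl9, Ccl6, Ccl3 and Ccl4, spans 83525778 to 83664683, and 1 of 5 members, Ccl4, was called higher. Ccl4 met the low-expression filter through the knockout tumors alone. Within 250 kb of the first group 0 genes other than CC ligands were tested. Within 250 kb of the second group 8 other genes were examined, with a median log2 difference of -0.09. Of these 2 (Taf15 and Heatr6) were lower by limma and the rest were not called, where 20.7% of all tested genes were lower. A difference between the 2 groups of genes was not tested.

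**Figure D3:**
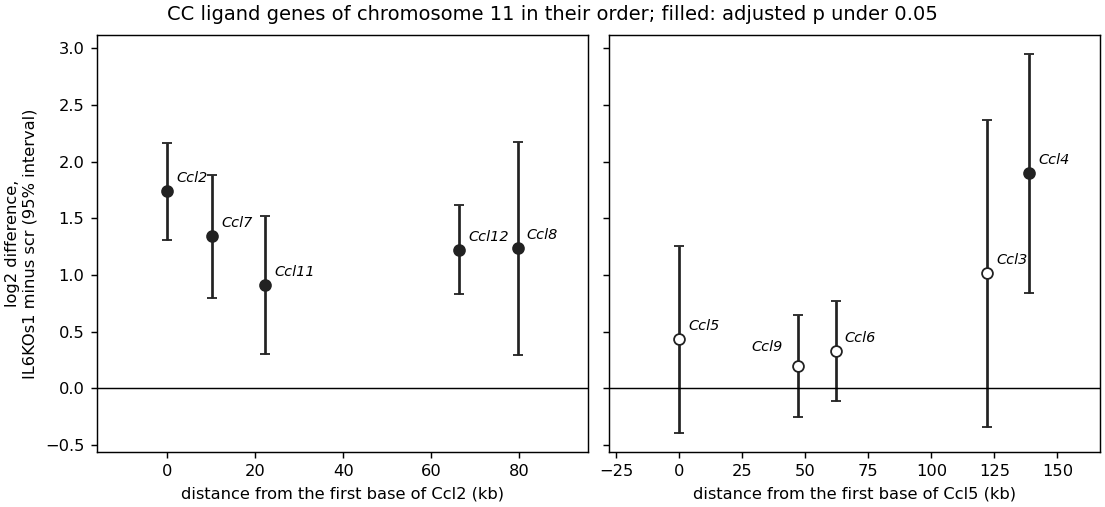
Log2 difference (cxC26 IL6KOs1 minus cxC26 scr, with 95% intervals) of the CC ligand genes of chromosome 11 against distance in kb from the first base of Ccl2 (left) or Ccl5 (right), where Ccl4 is drawn at its last base and filled points have an adjusted p under 0.05. The 5 genes of the left group, Ccl12 included, are filled. Ccl4, the filled gene of the right group, met the low-expression filter through the knockout tumors alone.

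Upstream sequences were at hand for 5 of the 10 ligands (Ccl3, Ccl6, Ccl8, Ccl9 and Ccl22) and for Ccl12. The 250 bases before the annotated start are shown for Ccl8 and Ccl12, neighbours that were both higher, and for Ccl9 and Ccl6, neighbours that did not pass the test. Capitals mark matches, on either strand, to the NF-kB site motif (kB), the AP-1 motif TGANTCA, the GAS motif TTCNNNGAA and the TATA motif TATAAA. The sequences are those of RefSeq, GRCm38.p6, written 5′ to 3′ along each gene.
Ccl8, chr11:82114935-82115184, plus strand: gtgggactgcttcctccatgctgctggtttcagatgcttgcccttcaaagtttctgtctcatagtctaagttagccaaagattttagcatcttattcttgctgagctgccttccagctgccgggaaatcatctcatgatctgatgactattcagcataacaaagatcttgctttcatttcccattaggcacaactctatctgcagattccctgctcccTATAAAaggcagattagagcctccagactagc
Ccl12, chr11:82101595-82101844, plus strand: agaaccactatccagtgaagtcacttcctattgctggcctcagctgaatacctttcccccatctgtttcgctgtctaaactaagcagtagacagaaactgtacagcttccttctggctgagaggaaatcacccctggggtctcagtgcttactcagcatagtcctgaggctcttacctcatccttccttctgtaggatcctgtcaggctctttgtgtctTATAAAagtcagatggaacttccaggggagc
Ccl9, chr11:83578637-83578886, minus strand: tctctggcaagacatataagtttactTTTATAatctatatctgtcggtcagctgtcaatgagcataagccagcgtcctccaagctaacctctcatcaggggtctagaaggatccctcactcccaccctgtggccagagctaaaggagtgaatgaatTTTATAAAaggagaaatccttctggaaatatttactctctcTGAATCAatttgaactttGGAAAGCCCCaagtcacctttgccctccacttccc
Ccl6, chr11:83593088-83593337, minus strand: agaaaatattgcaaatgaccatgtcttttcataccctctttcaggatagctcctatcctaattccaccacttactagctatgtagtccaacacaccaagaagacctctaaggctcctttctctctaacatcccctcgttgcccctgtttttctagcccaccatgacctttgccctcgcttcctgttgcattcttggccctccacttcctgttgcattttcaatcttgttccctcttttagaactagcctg

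The TATA motif began 32 bases before the start of Ccl8 and 31 bases before that of Ccl12, and it was present in 12.4% of 32851 promoter windows of the same length. In Ccl9 a kB match lay 35 to 26 bases and an AP-1 match 53 to 47 bases before the start, and TATA matches on both strands overlapped farther upstream. The kB motif was present in 7.25% of all windows, AP-1 in 6.75% and GAS in 7.02%. Ccl6 held no match in its window, and neither did Ccl3 and Ccl22. A match is a run of letters and not a measured site.

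The remaining CC ligands were mostly silent. Of 13 others in the table, 3 were tested and 1, Ccl12, was higher. Ccl25 had a log2 difference of -0.39 (limma adjusted p = 0.0967), and Ccl24 had one of -1.21 (limma adjusted p = 0.301). Ccl17, which shares the receptor Ccr4 with Ccl22, was under the filter with 6, 4, 5 and 7 reads in scr tumors and 19, 9, 13 and 15 reads in knockout tumors, without overlap (two-sided exact permutation p = 0.0286).

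Of 9 CC receptors examined, 4 were tested, 2 were higher and 0 were lower by limma, also at an unadjusted p under 0.05. Ccr2, the receptor of Ccl2 and Ccl7 on monocytes, had 254, 299, 197 and 221 reads in the scr tumors and 1072, 728, 1193 and 1060 reads in the knockout tumors. The groups lay far apart, with a 4.30-fold difference (95% interval 3.50 to 5.27, limma adjusted p = 1.34e-06). Ccr3, the eotaxin receptor, rose from 5, 4, 0 and 1 reads to 46, 25, 42 and 37 reads (limma adjusted p = 0.00046), and it met the low-expression filter through the knockout tumors alone. The 7 eosinophil markers were all under the filter, with Ear1 at 0 reads in each tumor. Ccr1, bound by Ccl6 and Ccl9, had a log2 difference of 0.49 with a 95% interval of -0.03 to 1.02 (limma adjusted p = 0.126), and Ccr10 had one of -0.65 (limma adjusted p = 0.113). Ccr4 had 0 or 1 read in each tumor, and Ccr8 had 0 to 12 reads. Ccr7, also under the filter, had 9, 11, 9 and 4 reads in scr tumors and 56, 23, 13 and 18 reads in knockout tumors. Its groups did not overlap (mean log2 difference 1.59, two-sided exact permutation p = 0.0286), while those of Ccr4, Ccr6, Ccr8 and Ccr9 did.

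Among the 5 atypical receptors, which bind chemokines without classical signaling, 3 were tested and 2 were higher. Ackr2, a scavenger of inflammatory CC ligands, went from 13, 10, 6 and 8 reads in scr tumors to 43, 27, 65 and 72 reads in knockout tumors (log2 difference 2.43, SE 0.348, limma adjusted p = 0.000307), and it too met the filter through the knockout tumors alone. Ackr3, which binds CXC rather than CC chemokines, had a log2 difference of 0.77 (SE 0.110, limma adjusted p = 0.000289). Ccrl2 did not pass the test, at 0.79 with a 95% interval of -0.47 to 2.06.

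**Figure D4:**
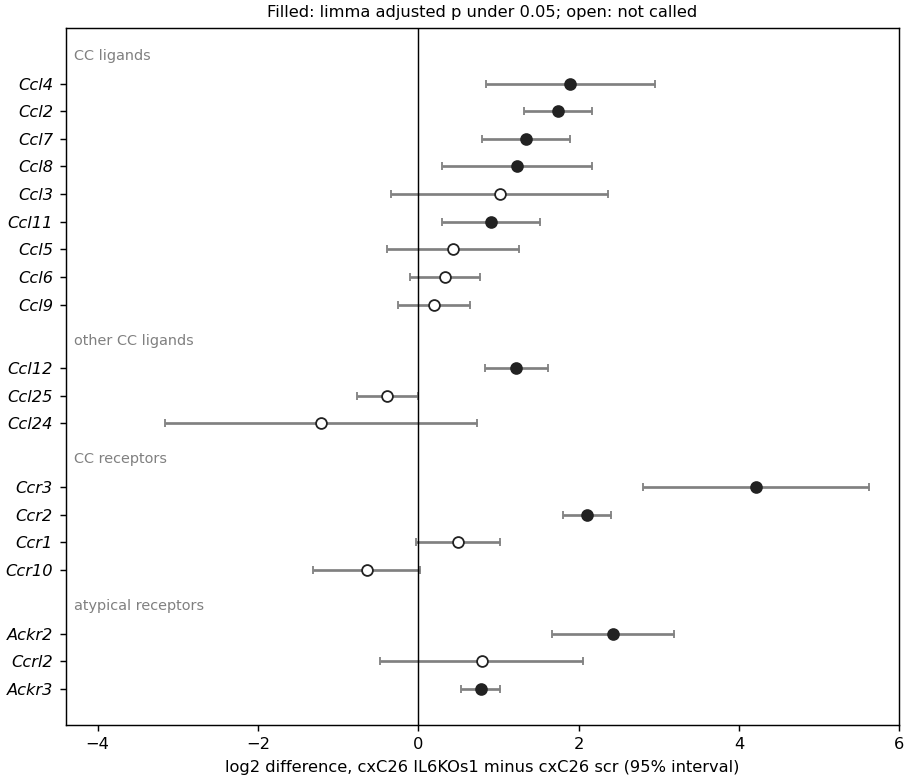
Log2 difference (cxC26 IL6KOs1 minus cxC26 scr) with 95% intervals for the tested CC ligands, CC receptors and atypical receptors, where filled points have a limma adjusted p under 0.05 and open points do not. All 9 tested members lie right of 0 and 5 are filled, and Ccl12, Ccr3, Ccr2, Ackr2 and Ackr3 are filled below them. Ccl4, Ccr3 and Ackr2 met the low-expression filter through the knockout tumors alone.

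Of 10 cytokines known to induce CC ligands 4 were tested, of which 2 were higher and 1 was lower. Csf1, the growth factor of macrophages, was 5.18-fold higher (849, 927, 491 and 478 reads in scr tumors against 3572, 3711, 3004 and 2909 reads in knockout tumors, limma adjusted p = 4.59e-06). Tnf, an inducer of Ccl2, was 2.92-fold higher, with 18 to 20 reads against 40 to 97 reads (limma adjusted p = 0.000988). Il33, an alarmin, fell by 2.00 on the log2 scale (limma adjusted p = 6.48e-07), from 875 to 1047 reads to 202 to 276 reads. Il1b did not pass the test (log2 difference -0.37, 95% interval -1.56 to 0.82), and Ifng had 0 reads in the scr tumors and 33, 0, 1 and 2 reads in the knockout tumors.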

How the data were processed

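Bulk RNA sequencing covered 8 tumors, grouped by their titles. The authors trimmed reads with Trimmomatic, aligned them with HISAT2 to mm10 (GRCm38), counted them per gene with featureCounts and deposited log2 CPM from limma-voom. The annotation and strand setting are not given in the sources used here. The log2 scale holds offsets of 0.5 reads on the count and 1 read on the library size. Reads were recovered by inverting the transformation (100% of values whole within 0.05), giving 14158989 to 17048062 reads per tumor, which limits low genes.

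Differences were fitted on the log2 values with limma 3.58.1 in R 4.3.3 (lmFit, eBayes with trend, no covariates) over 13262 genes that reached 1 CPM in 4 or more tumors. P-values were adjusted by Benjamini-Hochberg with a threshold of 0.05. Nothing says more of the tumors than that they are separate samples, so p-values measure the spread between them. Same-numbered tumors of the groups were compared as possible pairs. Levels per kb used GENCODE M21 exon lengths, and positions and promoters came from RefSeq GRCm38.p6. Named genes are the ligands, fixed lists of related ligands, receptors, inducing cytokines and cell markers, Il6, genes within 250 kb of the ligands and the 3 genes most like Ccl2. Members and lists were chosen with earlier results of these data known. Results for 2 genes are not reported here. The fit was tested on simulated data. Alternatives covered filters, scaling, weights, pseudocount, trend, pairing and leaving out each tumor.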

Additional observations from a re-analysis of the deposited data

Results flagged for a closer look

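Of 46 groups of 4 tumors examined, 3 held a tumor set apart from the others by more than Dixon's 95% limit, where chance would give about 2.3. Ccl6 in cxC26 IL6KOs1 replicate 2 stood at 5.97 log2 CPM, while the remaining knockout tumors lay between 5.18 and 5.28. Ccr1 in cxC26 IL6KOs1 replicate 1 was at 6.16 log2 CPM, against 4.89 to 5.02. Tnf in cxC26 IL6KOs1 replicate 1 was at 2.59 log2 CPM, against 1.55 to 1.71. The latter tumor also had the highest mean of the monocyte and macrophage markers, at 7.06 log2 CPM against 6.20 to 6.57.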

How the results depend on the processing

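The count of ligands called higher was 5. It was 3 without a filter on low expression and 3 when genes had to average 3 log2 CPM or more, which left 5 ligands tested, and 2 to 5 when single tumors were left out. It was 3 (Ccl2, Ccl4 and Ccl7) without scr replicate 3 or 4, 3 (Ccl2, Ccl7 and Ccl11) without knockout replicate 1 and 2 (Ccl2 and Ccl7) without knockout replicate 2. Ccl4 failed the filter, and so had no test, whenever a knockout tumor was left out. Requiring at least a 2-fold difference left 829 genes higher and 521 lower of all genes, and 4 ligands higher. Of 137 single-ligand values under alternatives 127 kept their direction and call and 10 kept only their direction (6 of Ccl8, 4 of Ccl11). Ccl8 had an adjusted p of 0.136 without the filter and 0.0808 without the mean-variance trend, and Ccl11 had 0.0716 without the filter. Over all tested genes, tumors with the same number did not deviate together (r -0.06 to 0.06). A fit with the number as a replicate block gave 5 ligands higher and 0 lower, 2477 genes higher and 2688 lower. With this block the limma adjusted p of Ccl8 went from 0.0387 to 0.000424. Whether the numbers pair tumors cannot be told from these values. The causes of these shifts were not tested beyond the fewer genes or tumors. Low counts limit what can be said of Ccl3, Ccl4, Ccl5 and Ccl22, with under 60 reads per tumor. How far depth or the spread between tumors set their results was not tested.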

Other observations

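Other cell markers gave the following values, none of which was tied to the ligands by a test. Of 8 fibroblast markers 4 were lower and 1 was higher, and of 5 endothelial markers 0 were called by limma, also at an unadjusted p under 0.05. Among tested dendritic cell markers Zbtb46, Itgax and Fscn1 were lower and Cacnb3 was higher. Among tested neutrophil markers S100a8 was higher and Mmp8 was lower. The regulatory T cell marker that was lower was Ikzf2. Around Ccl22 14 other genes were tested, of which 5 were higher, where 19.1% of all tested genes were. Among the 5 was Cx3cl1, a CX3C chemokine (log2 difference 1.21, limma adjusted p = 1.75e-05).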
